A study of Homo sapiens with 18 samples.

Results

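The genes described here are 29 genes of cholesterol synthesis and of its control by the sterol regulatory element binding proteins (SREBPs), chosen as a fixed list of symbols and found in the deposited table through their Ensembl gene IDs. They are 29 of the 60658 gene IDs in that table, and all 29 passed the filter on low values. The set holds 21 enzymes or enzyme partners from acetoacetyl-CoA to cholesterol, 2 SREBP genes, 3 genes for the proteins that escort or retain SREBPs, 2 SREBP proteases and 1 sterol transfer protein. Each was measured by RNA sequencing in 18 cultures of human acute myeloid leukaemia cells.

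B11 is a single clone grown out from the monocytic line THP1. Per the labels it carries heterozygous NRAS-G12V, delivered by a lentiviral vector as a doxycycline-inducible, CRISPR-resistant copy together with GFP. Its cells had been sorted for GFP under doxycycline, then given Cas9, a puromycin resistance gene and paired guide RNAs flanking the NRAS start codon. THP1, the parental line, is labelled heterozygous NRAS-G12D and received none of these vectors. B11 and THP1 were each spread over 9 plates, with 3 plates at each of 0, 1 and 10 ug/ml doxycycline for 5 days, so there were 3 libraries in each of 6 groups. The plates of each line were split from its own cells, so the p-values speak only to differences among plates. With a single clone, effects of clonal selection and of the edit cannot be told apart.

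SREBPs are made as precursors in the membrane of the endoplasmic reticulum, where SCAP binds them. When sterols are scarce, SCAP carries them to the Golgi, the proteases encoded by MBTPS1 and MBTPS2 cut them free, and the released part enters the nucleus and switches on its targets. When sterols are abundant, INSIG1 and INSIG2 hold SCAP back. The product of SREBF2 mainly drives genes of cholesterol synthesis and that of SREBF1 mainly genes of fatty acid synthesis, and INSIG1 and SREBF2 are themselves SREBP targets. The same pathway supplies the farnesyl and geranylgeranyl groups that anchor RAS and related GTPases in membranes.

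Values are FPKM (fragments scaled by gene length and library total, a level that can be compared between genes) per library, or their mean ± SD over 3 libraries. Each change is given on the scale of log2(FPKM + 1) with its standard error (SE), from 1 limma fit over all 17555 genes that passed the filter (the added 1 FPKM understates changes of low genes), and a gene was called changed at a Benjamini-Hochberg adjusted p under 0.05. All adjusted p-values below are from that fit. Depth, estimated from the smallest steps between values, was 11.3 to 16.3 M fragments per library. Markers of the myeloid lineage were present in every group, with a summed level of 826.8, 803.4 and 908.5 FPKM in B11 at 10 ug/ml, against 3934, 3042 and 3791 FPKM in B11 at 0 ug/ml and 1092 to 1462 FPKM over the 9 THP1 libraries. LYZ carried most of that difference in B11 (293.6 ± 29.8 FPKM at 10 ug/ml and 2781 ± 454 FPKM at 0 ug/ml, SD, n = 3 each). Of the 8 markers, 4 fell (LYZ, CSF1R, CD33 and PTPRC), ITGAM rose and 3 were not called, among them SPI1. In B11 at 10 against 0 ug/ml, 21.3% of all tested genes fell and 21.6% rose. CD3E of T cells was listed at 0 in all 18 libraries, EPCAM of epithelial cells was listed at 0 in all B11 libraries, and PECAM1, which monocytes also carry, made up most of the summed level of the markers of other cells. In B11 at 1 ug/ml, library B and library C stood apart in that 6.51% and 3.76% of their summed FPKM lay in 1 unnamed gene ID that was at 0 elsewhere.

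NRAS itself had 19.8, 22.0 and 21.1 FPKM in B11 at 0 ug/ml, 24.4, 23.7 and 23.3 FPKM at 1 ug/ml, and 28.0, 27.7 and 28.2 FPKM at 10 ug/ml. The change between 10 and 0 ug/ml in B11 was 0.40 ± 0.07 (SE; adjusted p = 0.000276), with no overlap between libraries. Between 1 and 0 ug/ml in B11 the NRAS change of 0.18 was not called, though the libraries did not overlap. Between 10 and 1 ug/ml the change of 0.22 was called. THP1 had 23.3 ± 0.348, 23.4 ± 1.97 and 24.2 ± 0.505 FPKM (SD, n = 3 each) at 0, 1 and 10 ug/ml. Untreated B11 and untreated THP1 differed by -0.15 ± 0.07 (adjusted p = 0.0994), which was not called. The table gives 1 value per gene, so RNA from the edited locus and from the added copy cannot be told apart, and a cut near the start codon need not remove the RNA.

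In untreated B11, 19 of the 21 enzyme genes were lower than in untreated THP1, from the first step to the last. The 21 enzyme genes summed to 902.6, 872.2 and 916.7 FPKM in untreated B11, against 2922, 2876 and 2961 FPKM in untreated THP1. Of the 29 genes, 23 were lower in B11, 1 (MBTPS1) was higher and 5 were not called, whereas 23.6% of all tested genes were called lower and 23.5% higher. The median difference of the 29 genes was -1.50, against 0.02 over all tested genes. The libraries are bulk RNA, so fewer expressing cells and less RNA per cell cannot be told apart.

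The step with the largest difference was MSMO1, the oxidase that begins removal of the methyl groups at carbon 4 of the sterol ring. It had 6.75, 3.35 and 7.15 FPKM in untreated B11, against 47.8, 46.6 and 49.9 FPKM in untreated THP1, a difference of -2.92 ± 0.23 (adjusted p = 7.87e-08). SQLE, the squalene epoxidase and a known rate-limiting enzyme, had 15.1, 16 and 15.7 FPKM in untreated B11, against 106.3, 113.3 and 104.8 FPKM in untreated THP1 (-2.72 ± 0.10, adjusted p = 2.27e-11). No library of untreated B11 overlapped one of untreated THP1 for either gene. DHCR7, the reductase of the last step, differed by -2.66 ± 0.18, HMGCS1, which condenses acetoacetyl-CoA to HMG-CoA, by -2.26 ± 0.15, and INSIG1 by -2.22 ± 0.11 (adjusted p of 1.18e-08, 1.61e-08 and 3.26e-10).

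With 10 ug/ml doxycycline, 17 of the 21 enzyme genes rose in B11. The summed level of the 21 was 902.6, 872.2 and 916.7 FPKM at 0 ug/ml, 1563, 1621 and 1545 FPKM at 1 ug/ml, and 2021, 2143 and 1697 FPKM at 10 ug/ml. At 10 against 0 ug/ml, 21 of the 29 genes rose, SCAP and MBTPS1 fell, and GGPS1, LSS, TM7SF2, HSD17B7, SREBF1 and INSIG2 were not called, where 21.6% of all tested genes rose and 21.3% fell. The median change of the 29 was 0.70, against -0.02 over all tested genes. At 1 against 0 ug/ml, 22 rose and the same pair fell (19.8% of all tested genes rose and 17.3% fell), with a median of 0.60 against -0.01. Library C of B11 at 10 ug/ml was the lowest of its group for 20 of the 29 genes, and without it 24 genes in place of 23 were called between 10 and 0 ug/ml.

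In THP1, 12 of the 21 enzyme genes fell with 10 ug/ml doxycycline. The 21 summed to 1824, 1887 and 1690 FPKM at 10 ug/ml, against 2922, 2876 and 2961 FPKM at 0 ug/ml. Of the 29 genes, 15 fell and 0 rose, where only 0.923% of all tested genes fell and 0.0968% rose. The median change of the 29 was -0.66, against 0.00 over all tested genes. With an unadjusted p under 0.05, 21 of the 29 were lower and 1 (MBTPS1) higher. Shares of all tested genes at an unadjusted p were not computed, here or below, so such counts have no background beside them. Only 6 were called when THP1 at 10 and 0 ug/ml were fitted alone, and 9 without untreated library C.

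**Figure D1:**
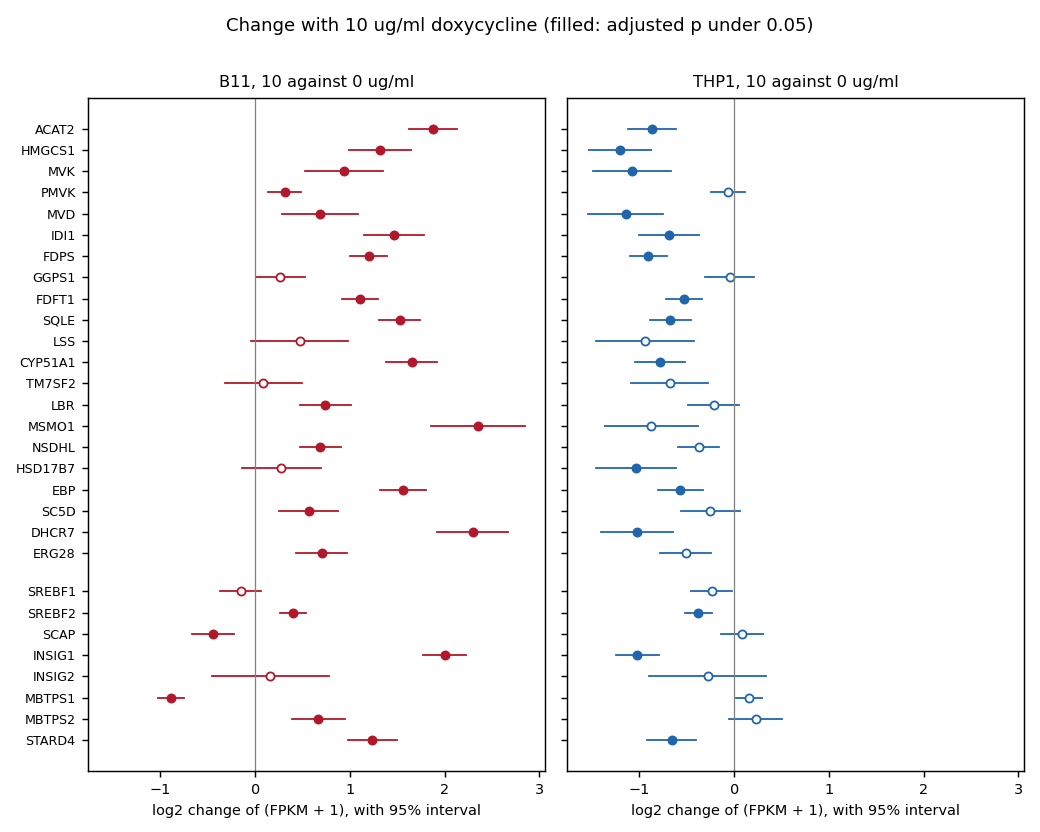
Change of each of the 29 genes between 10 and 0 ug/ml doxycycline in B11 (left, red) and THP1 (right, blue), as the difference of log2(FPKM + 1) with its 95% interval from limma. Filled points passed an adjusted p of 0.05; enzymes run down the page in pathway order and regulators follow. Points for B11 lie mostly right of 0, where 21 genes rose, and points for THP1 mostly left of it, where 15 fell.

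At 1 ug/ml THP1 showed no called change in any of the 29 genes (0.0057% of all tested genes rose and 0.0057% fell, which is 1 gene each way). With an unadjusted p under 0.05, limma gave 2 higher and 2 lower, and the median change was -0.08. Between 10 and 1 ug/ml in THP1, 9 of the 29 fell and 0 rose, where 0.245% of all tested genes fell and 0.0513% rose at the same adjusted threshold. The 9 were ACAT2, HMGCS1, MVK, MVD, IDI1, FDPS, FDFT1, SQLE and INSIG1. At an unadjusted p under 0.05 by limma, 22 of the 29 were lower and 0 higher, a threshold to which those shares do not apply. Leaving out 1 library at a time gave between 2 and 11 calls, with 2 without THP1 library A or B at 1 ug/ml or C at 10 ug/ml, 3 without THP1 C at 1 ug/ml, untreated THP1 B or C or B11 B at 1 ug/ml, and 4 without THP1 A or B at 10 ug/ml.

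The difference between the responses of B11 and THP1 was tested, which does not itself require opposite directions. Between 10 and 0 ug/ml, 23 of the 29 genes responded more positively in B11 than in THP1 and 2 more negatively (SCAP and MBTPS1), where 16% of all tested genes were called in the positive and 13.8% in the negative direction. Between 1 and 0 ug/ml the counts were 19 and 2, against 14.3% and 11.6% of all tested genes. Between 10 and 1 ug/ml they were 18 and 2, against 2.25% and 2.39% of all tested genes. In that last comparison the negative pair was SREBF1 and MBTPS1. The SREBF1 call was lost in 15 of 28 alternatives (adjusted p of up to 0.285), and that of SREBF2, among the 18, in 23 of 28 (adjusted p of up to 0.116). Across the 29 genes, the change in B11 and the change in THP1 at 10 against 0 ug/ml were inversely related (Pearson r = -0.631, Spearman rho = -0.564), as a description over genes that share libraries and are not independent.

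Within the set, 14 genes were called lower in untreated B11 than in untreated THP1, higher in B11 and lower in THP1 at 10 against 0 ug/ml. They were ACAT2, HMGCS1, MVK, MVD, IDI1, FDPS, FDFT1, SQLE, CYP51A1, EBP, DHCR7, SREBF2, INSIG1 and STARD4. The share of all tested genes with this pattern was not computed. Its comparisons share the untreated libraries and are not independent, and some of the THP1 calls were lost under alternatives. Proximal upstream sequence is shown for 8 of the 14 genes. They are SREBF2 and the 7 others with the largest difference in response that have a RefSeq promoter with a CCAAT box outside exons of the same strand and of protein-coding genes. The stretches are RefSeq sequence of GRCh38.p14, written 5′ to 3′ on the strand of the gene, with no exonic base of that gene. Capitals mark the CCAAT box, read on either strand as CCAAT or ATTGG and bound by the factor NF-Y, and in SREBF2 also the letters TCACCCCAC, a match to the SREBP site core TCACNCCAC.

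DHCR7, chr11:71448436-71448595, minus strand: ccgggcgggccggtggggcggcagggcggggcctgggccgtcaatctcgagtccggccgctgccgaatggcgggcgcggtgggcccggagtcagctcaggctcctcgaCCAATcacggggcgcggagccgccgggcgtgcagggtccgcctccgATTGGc
INSIG1, chr7:155297628-155297775, plus strand: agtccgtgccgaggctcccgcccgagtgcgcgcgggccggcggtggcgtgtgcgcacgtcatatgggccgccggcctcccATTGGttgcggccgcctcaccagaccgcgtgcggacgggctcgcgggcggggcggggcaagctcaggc
HMGCS1, chr5:43313513-43313662, minus strand: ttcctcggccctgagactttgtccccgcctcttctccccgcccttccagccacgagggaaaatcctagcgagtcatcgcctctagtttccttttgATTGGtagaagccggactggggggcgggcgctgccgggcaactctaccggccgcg
IDI1, chr10:1049171-1049330, minus strand: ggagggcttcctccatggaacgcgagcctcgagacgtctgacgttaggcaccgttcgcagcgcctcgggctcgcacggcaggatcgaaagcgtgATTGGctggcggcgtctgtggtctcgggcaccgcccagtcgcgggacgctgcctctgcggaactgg
FDPS, chr1:155308616-155308747, plus strand: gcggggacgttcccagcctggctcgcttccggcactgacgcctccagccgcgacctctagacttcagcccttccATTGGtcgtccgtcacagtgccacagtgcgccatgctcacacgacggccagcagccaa
STARD4, chr5:111512591-111512750, minus strand: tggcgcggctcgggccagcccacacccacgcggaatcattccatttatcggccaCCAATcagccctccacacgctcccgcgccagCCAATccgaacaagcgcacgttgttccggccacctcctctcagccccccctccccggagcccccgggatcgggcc
MVD, chr16:88663162-88663321, minus strand: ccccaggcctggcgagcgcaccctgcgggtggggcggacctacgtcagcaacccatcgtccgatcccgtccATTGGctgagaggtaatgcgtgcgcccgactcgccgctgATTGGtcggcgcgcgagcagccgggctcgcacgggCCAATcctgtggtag
SREBF2, chr22:41832919-41833078, plus strand: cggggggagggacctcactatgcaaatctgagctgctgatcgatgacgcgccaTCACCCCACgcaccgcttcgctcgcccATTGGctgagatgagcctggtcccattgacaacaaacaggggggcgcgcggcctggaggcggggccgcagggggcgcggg

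RefSeq had 34 promoter windows, of 300 bases each, for 26 of the 29 genes, and none was at hand for ACAT2, FDFT1 and SQLE. CCAAT on either strand was found in 20 of the 34 windows (58.8%, in 18 genes), against 34.6% of 35116 windows of all genes and 34.6% of 15185 windows of the genes tested here. GGGCGG, the core of the box bound by Sp1, was in 28 of the 34 windows (82.4%), against 45% of all windows and 65% of those of tested genes. TCACNCCAC was in 1 of the 34 windows (2.94%, SREBF2), against 1.13% of all windows. The CCAAT and SREBP site letters in SREBF2 lie 106 and 133 bases before its start and do not overlap. These are matches of letters in a window and show no binding.

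ACAT2, HMGCS1, MVK, PMVK and MVD act on the way from acetyl-CoA through mevalonate to isopentenyl pyrophosphate. All 5 rose in B11 at both 1 and 10 ug/ml against 0 ug/ml, and all but PMVK fell in THP1 at 10 ug/ml. ACAT2, which joins acetyl-CoA units, had 29.7, 24.9 and 26.4 FPKM in B11 at 0 ug/ml, 77.3, 78.5 and 70.5 FPKM at 1 ug/ml, and 105.3, 118.9 and 84.5 FPKM at 10 ug/ml. In THP1 it had 86.9, 97.8 and 101.9 FPKM at 0 ug/ml, 82.0, 91.0 and 79.4 FPKM at 1 ug/ml, and 58.7, 50.6 and 46.7 FPKM at 10 ug/ml. The 3 doses did not overlap in B11, and in THP1 only 10 ug/ml stood below the others. Its change at 10 against 0 ug/ml was 1.88 ± 0.12 in B11 (adjusted p = 8.13e-09) and -0.87 ± 0.12 in THP1 (adjusted p = 0.00238).

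HMGCS1 had 18.8, 19.8 and 16.3 FPKM in B11 at 0 ug/ml, 36.9, 41.2 and 33.1 FPKM at 1 ug/ml, and 49.1, 56.0 and 37.4 FPKM at 10 ug/ml. In THP1 it had 95.3, 85.8 and 91.4 FPKM at 0 ug/ml, 81.3, 79.9 and 69.5 FPKM at 1 ug/ml, and 33.4, 49.2 and 35.4 FPKM at 10 ug/ml. The B11 libraries at 1 and 10 ug/ml overlapped, and the lines met at 10 ug/ml, where B11 minus THP1 was 0.27 (95% interval -0.06 to 0.60). Among THP1 changes at 10 against 0 ug/ml, HMGCS1 had the largest fall of the 29 (-1.21 ± 0.15, adjusted p = 0.00118), which was not called with those groups fitted alone (adjusted p = 0.0682). MVD, the decarboxylase that yields isopentenyl pyrophosphate, fell by 1.14 in THP1 and rose by 0.69 in B11 (adjusted p of 0.00805 and 0.00769). MVK, mevalonate kinase, averaged 17.6 ± 5.40 FPKM in B11 at 10 ug/ml and 8.43 ± 0.562 FPKM in B11 at 0 ug/ml (SD, n = 3 each). In THP1 MVK averaged 13.05 ± 1.02 FPKM at 10 ug/ml and 28.8 ± 4.29 FPKM at 0 ug/ml. The change was -1.08 ± 0.19 (adjusted p = 0.0136). Its call was lost without untreated library C (adjusted p = 0.0794) or library C at 10 ug/ml (adjusted p = 0.0573). It was also lost with only those groups fitted. PMVK, phosphomevalonate kinase, moved least of the 5, by 0.31 ± 0.08 in B11 (adjusted p = 0.00691) and by -0.06 (95% interval -0.24 to 0.11) in THP1. Exons of ACAT2 overlap those of SOD2 and TCP1, and exons of MVK those of MMAB, on the other strand, and no source at hand says whether counting used strand.

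**Figure D2:**
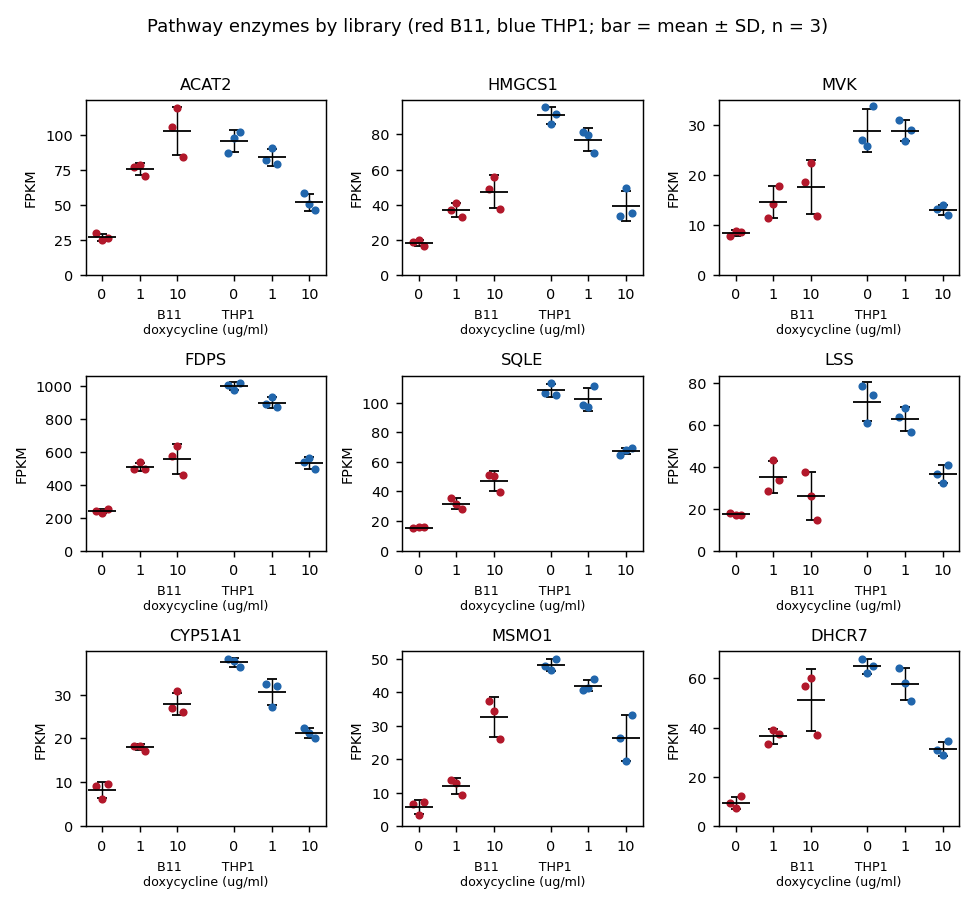
FPKM of 9 enzymes in each library (points), with the mean and SD of 3 libraries (bars), for B11 (red) and THP1 (blue) at 0, 1 and 10 ug/ml doxycycline. The values climb with dose in B11 for ACAT2, SQLE, CYP51A1 and MSMO1 and are lowest at 10 ug/ml in THP1, and LSS spreads from 14.6 to 37.8 FPKM in B11 at 10 ug/ml.

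The isoprenoid branch point holds IDI1, FDPS and GGPS1. FDPS, which makes farnesyl pyrophosphate and was the most abundant of the enzymes, had 241.1, 226.8 and 254.7 FPKM in B11 at 0 ug/ml, 494.5, 539.2 and 497.6 FPKM at 1 ug/ml, and 575.5, 639.3 and 461.6 FPKM at 10 ug/ml. THP1 had 1004, 973.8 and 1022 FPKM at 0 ug/ml, 891.4, 934.5 and 871.5 FPKM at 1 ug/ml, and 540.6, 565.6 and 496.6 FPKM at 10 ug/ml. In B11, FDPS rose by 1.08 at 1 against 0 ug/ml (adjusted p = 2.68e-07), while 10 and 1 ug/ml overlapped (0.12 ± 0.09, adjusted p = 0.465), and the lines overlapped at 10 ug/ml. IDI1, the isopentenyl isomerase, kept rising, by 0.72 ± 0.15 at 1 against 0 ug/ml and by 0.75 ± 0.15 at 10 against 1 ug/ml (adjusted p of 0.00128 and 0.00375). At 10 ug/ml IDI1 averaged 56.0 ± 9.84 FPKM in B11 and 21.2 ± 4.24 FPKM in THP1 (SD, n = 3 each), a difference of 1.36 ± 0.15 (adjusted p = 5.46e-06), the largest of the 29 between the lines at that dose. GGPS1, which makes the geranylgeranyl donor, was not called at any dose step in either line, with B11 means of 51.3, 51.7 and 61.6 FPKM and THP1 means of 47.2, 47.8 and 46.0 FPKM at 0, 1 and 10 ug/ml. FDPS has 8 named pseudogenes, and GGPS1 shares exonic bases with TBCE on its own strand, so reads may have been split or shared there.

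FDFT1, SQLE and LSS lead from farnesyl pyrophosphate through squalene to lanosterol. FDFT1, squalene synthase, had 479.5, 491.6 and 448.1 FPKM in B11 at 10 ug/ml, against 210.3, 241.2 and 208.2 FPKM at 0 ug/ml, and rose at both steps (0.53 ± 0.09 and 0.57 ± 0.09). SQLE had 35.9, 31.6 and 28.0 FPKM in B11 at 1 ug/ml and 51.4, 50.4 and 39.5 FPKM at 10 ug/ml, and in THP1 98.2, 96.9 and 111.2 FPKM at 1 ug/ml and 64.8, 68.1 and 69.2 FPKM at 10 ug/ml. SQLE rose in B11 by 1.53 ± 0.10 and fell in THP1 by 0.67 at 10 against 0 ug/ml (adjusted p of 1.57e-08 and 0.005), but every B11 library stayed below every THP1 library at each dose. LSS, lanosterol synthase, rose in B11 at 1 ug/ml (28.3, 43.3 and 34.0 FPKM, against 17.8, 17.2 and 17.2 FPKM at 0 ug/ml; 0.96 ± 0.24, adjusted p = 0.00575). At 10 ug/ml LSS had 37.8, 26.2 and 14.6 FPKM, which spread across both sides of the untreated level, and the change was 0.47 (95% interval -0.05 to 0.98).

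Of the 10 genes after lanosterol, 8 rose in B11 and 4 fell in THP1 at 10 against 0 ug/ml, and CYP51A1, EBP and DHCR7 did both. Over all tested genes, 21.6% rose in B11 and 0.923% fell in THP1. CYP51A1, which removes the methyl group at carbon 14, rose at both steps in B11, with 9.17, 6.22 and 9.57 FPKM at 0 ug/ml, 18.4, 18.4 and 17.3 FPKM at 1 ug/ml and 27.0, 30.7 and 26.0 FPKM at 10 ug/ml. THP1 had 38.0, 37.7 and 36.2 FPKM at 0 ug/ml and 22.4, 21.2 and 20.1 FPKM at 10 ug/ml, so that CYP51A1 was lower in B11 than in THP1 without the drug and higher at 10 ug/ml (0.38 ± 0.12, adjusted p = 0.0303). MSMO1 had 37.3, 34.4 and 25.9 FPKM in B11 at 10 ug/ml and 13.9, 12.9 and 9.42 FPKM at 1 ug/ml. Its change of 2.35 ± 0.23 at 10 against 0 ug/ml in B11 was the largest of the 29 (adjusted p = 9.5e-07), while the THP1 change of -0.87 was not called (adjusted p = 0.104).

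DHCR7 had 9.32, 7.35 and 12.2 FPKM in B11 at 0 ug/ml, 33.2, 39.0 and 37.5 FPKM at 1 ug/ml, and 57.0, 59.9 and 36.9 FPKM at 10 ug/ml. In THP1 it had 67.9, 61.9 and 64.8 FPKM at 0 ug/ml, 64.0, 58.0 and 50.8 FPKM at 1 ug/ml, and 31.0, 28.8 and 34.5 FPKM at 10 ug/ml. DHCR7 rose in B11 by 1.84 at 1 against 0 ug/ml (adjusted p = 9.45e-07), and the step between 10 and 1 ug/ml of 0.45 ± 0.18 was not called (adjusted p = 0.116). The difference in response between the lines at 10 against 0 ug/ml was 3.32 ± 0.25, the largest of the 29 (adjusted p = 1.26e-07), and the fall of DHCR7 in THP1 was called (adjusted p = 0.0115) but not without untreated library C (adjusted p = 0.0508). EBP, the sterol isomerase, had 146.4, 158.8 and 124.9 FPKM in B11 at 10 ug/ml, against 50.0, 40.2 and 54.3 FPKM at 0 ug/ml (1.56 ± 0.11, adjusted p = 3.4e-08), and fell by 0.57 in THP1.

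TM7SF2 and LBR both encode reductases of the double bond at carbon 14, and LBR is also a lamin-binding protein of the nuclear envelope. LBR was more abundant in every group, with B11 means of 69.2, 123.3 and 115.2 FPKM and THP1 means of 210.2, 201.0 and 180.9 FPKM at 0, 1 and 10 ug/ml, while TM7SF2 means lay between 26.3 and 42.8 FPKM. LBR rose in B11 at 10 against 0 ug/ml (0.74 ± 0.13, adjusted p = 0.000222) and TM7SF2 was called in neither line (0.09 in B11, 95% interval -0.32 to 0.49). NSDHL, which removes the oxidised methyl group at carbon 4 as carbon dioxide, SC5D, which adds the double bond at carbon 5, and ERG28, a scaffold of the demethylating enzymes known from yeast, rose in B11 by 0.69, 0.56 and 0.70 (adjusted p of 6.28e-05, 0.00557 and 0.000372) and were not called in THP1. HSD17B7, a ketoreductase of the same complex, was the only enzyme that fell in THP1 (11.3 ± 1.93 FPKM at 10 ug/ml and 24.2 ± 2.59 FPKM at 0 ug/ml, SD, n = 3 each, adjusted p = 0.0217) without rising in B11. That fall of HSD17B7 was lost when any of 5 THP1 libraries was left out, with an adjusted p of up to 0.1 without untreated library B, and 0.0588, 0.058, 0.0968 and 0.0646 without untreated A, untreated C, A at 10 ug/ml and B at 10 ug/ml. Fitting only THP1 at 10 and 0 ug/ml also lost that call. HSD17B7 and CYP51A1 have 2 and 3 named pseudogenes. CYP51A1 shares exonic bases with AC000120.2 and AC000120.3 on its own strand, TM7SF2 with VPS51 on its own strand and ERG28 with TTLL5 on the other.

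Both SREBP genes rose in B11 at 1 against 0 ug/ml, and at 10 against 0 ug/ml SREBF2 was called higher and SREBF1 was not called. With only library A kept for B11 at 1 ug/ml, the rise of SREBF2 at that dose was lost (adjusted p = 0.0541). SREBF2 had 95.8, 95.5 and 93.0 FPKM in B11 at 0 ug/ml, 113.5, 113.2 and 127.1 FPKM at 1 ug/ml, and 118.7, 131.5 and 126.1 FPKM at 10 ug/ml. THP1 had 151.9, 156.3 and 147.4 FPKM at 0 ug/ml, 143.8, 146.6 and 127.3 FPKM at 1 ug/ml, and 117.1, 113.3 and 120.0 FPKM at 10 ug/ml. The changes at 10 against 0 ug/ml were small. They were 0.40 ± 0.06 in B11 (adjusted p = 0.000136) and -0.38 ± 0.06 in THP1 (adjusted p = 0.0114). The THP1 fall of SREBF2 was lost without untreated library B (adjusted p = 0.058) or with those THP1 groups alone (adjusted p = 0.0847). SREBF1 had 158.1, 175.5 and 199.1 FPKM in B11 at 0 ug/ml, 265.2, 286.7 and 299.2 FPKM at 1 ug/ml, and 167.7, 166.9 and 143.1 FPKM at 10 ug/ml. It was thus highest at the middle dose, up by 0.68 ± 0.10 at 1 against 0 ug/ml and down by 0.83 at 10 against 1 ug/ml (adjusted p of 8.05e-05 and 8.27e-05), with no overlap at either step. THP1 means of SREBF1 were 156.9, 162.3 and 133.4 FPKM at 0, 1 and 10 ug/ml, with no called change, and its responses at 10 against 0 ug/ml differed between the lines by 0.08 ± 0.14 (adjusted p = 0.715). Exons of SREBF1 overlap those of RAI1 on the other strand.

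INSIG1 rose more than either SREBP gene. It had 34.4, 31.6 and 36.9 FPKM in B11 at 0 ug/ml, 106.2, 108.6 and 101.5 FPKM at 1 ug/ml, and 136.4, 169.5 and 118.4 FPKM at 10 ug/ml. In THP1 it had 155.3, 172.4 and 163.2 FPKM at 0 ug/ml, 137.8, 141.1 and 136.2 FPKM at 1 ug/ml, and 75.3, 90.2 and 75.6 FPKM at 10 ug/ml. The change at 10 against 0 ug/ml was 2.0 ± 0.11 in B11 (adjusted p = 1.33e-09) and -1.02 ± 0.11 in THP1 (adjusted p = 0.000365), and the groups did not overlap in either line. The step between 10 and 1 ug/ml in B11 (0.41 ± 0.11, adjusted p = 0.0221) was lost without library A or C at 1 ug/ml or library B at 10 ug/ml (adjusted p of 0.0549, 0.0771 and 0.0914). That step was also lost with only those groups fitted. INSIG2, the paralog of INSIG1, was the only gene of the 29 called in none of the 12 comparisons. INSIG2 ranged from 8.07 to 13.9 FPKM in B11 and from 9.15 to 24.1 FPKM in THP1, and its change at 10 against 0 ug/ml in B11 was 0.16 (95% interval -0.45 to 0.78).

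SCAP and MBTPS1 went the other way. MBTPS1, the protease of the first cut, had 61.4, 60.2 and 66.1 FPKM in B11 at 0 ug/ml, 47.4, 46.7 and 48.2 FPKM at 1 ug/ml, and 32.8, 33.4 and 33.6 FPKM at 10 ug/ml. The 3 doses were fully separated, and the change at 10 against 0 ug/ml was -0.89 ± 0.06 (adjusted p = 2.97e-08). In THP1 MBTPS1 means were 53.7, 60.8 and 60 FPKM at 0, 1 and 10 ug/ml, with no called change. Untreated B11 was above untreated THP1 for MBTPS1 (0.22 ± 0.06, adjusted p = 0.0114). But the call was lost under scaling to TPM (0.08, adjusted p = 0.333) and without untreated B11 library C (adjusted p = 0.0539). It was also lost with only the untreated groups fitted. SCAP had 33.0, 30.7 and 31.5 FPKM in B11 at 10 ug/ml, against 49.2, 37.6 and 44.8 FPKM at 0 ug/ml (-0.45 ± 0.10, adjusted p = 0.00265). At 1 ug/ml SCAP had 30.2, 35.6 and 37.3 FPKM, a change against 0 ug/ml of -0.34 ± 0.10 (adjusted p = 0.0181). The SCAP call was lost without untreated library A or C or library A at 1 ug/ml (adjusted p of 0.0882, 0.0531 and 0.0919). With only those groups fitted it was also lost (adjusted p = 0.104). MBTPS2, the protease of the later cut, was the least abundant of the 29 and rose in B11, with 4.41, 4.28 and 4.96 FPKM at 10 ug/ml, against 2.44, 2.77 and 2.29 FPKM at 0 ug/ml (0.66 ± 0.13, adjusted p = 0.000737). At values this low the added 1 FPKM understates the change of MBTPS2, and its exons overlap YY2 on the same strand. STARD4, which carries sterol between membranes, had 46.1, 53.0 and 42.3 FPKM in B11 at 10 ug/ml, against 19.0, 21.4 and 17.7 FPKM at 0 ug/ml (1.24 ± 0.12, adjusted p = 9.19e-07), and in THP1 17.6, 22.0 and 19.7 FPKM at 10 ug/ml, against 34.9, 28.0 and 32.4 FPKM at 0 ug/ml (-0.66 ± 0.12, adjusted p = 0.0161).

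**Figure D3:**
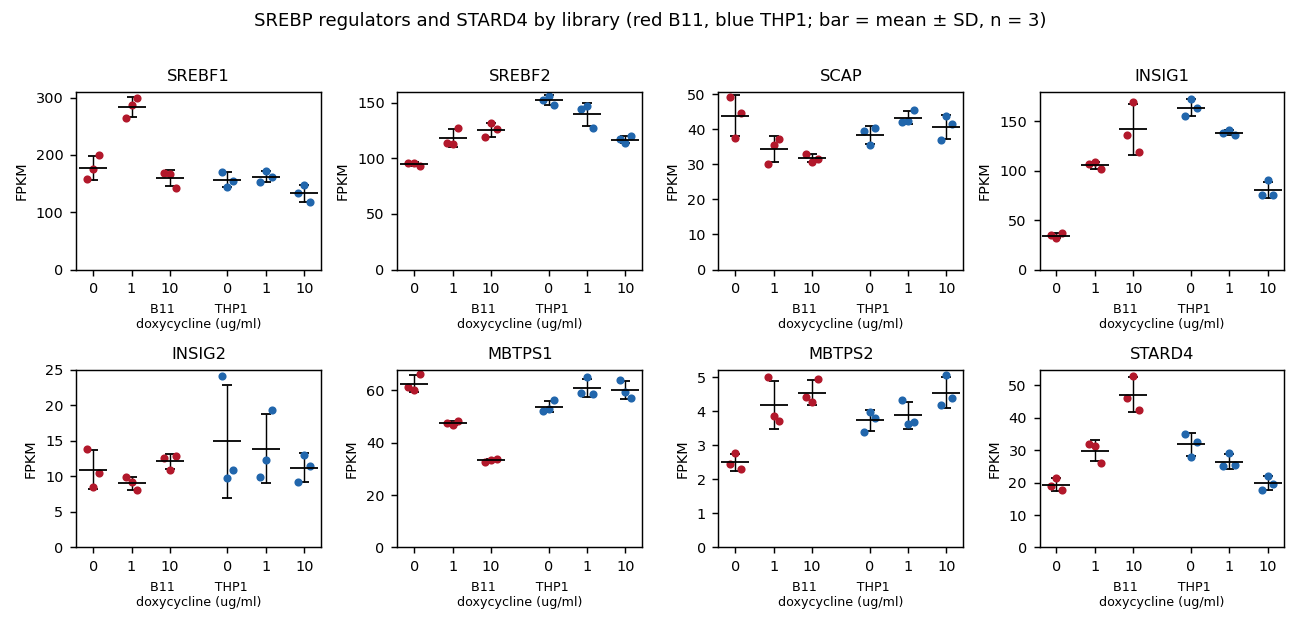
FPKM of the 7 SREBP regulators and STARD4 in each library (points), with the mean and SD of 3 libraries (bars), for B11 (red) and THP1 (blue) at 0, 1 and 10 ug/ml doxycycline. INSIG1 and STARD4 climb with dose in B11 and are lowest at 10 ug/ml in THP1, SREBF1 peaks at 1 ug/ml in B11, and MBTPS1 steps down with dose in B11.

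Between 10 and 1 ug/ml in B11, 9 of the 29 genes rose (ACAT2, IDI1, FDFT1, SQLE, CYP51A1, MSMO1, EBP, INSIG1 and STARD4) and SREBF1 and MBTPS1 fell, where 5.69% of all tested genes rose and 7.12% fell. The same 9 had also risen at 1 against 0 ug/ml. MSMO1 had the largest second step (1.36 ± 0.23, adjusted p = 0.0013). With only library A kept for B11 at 1 ug/ml, which is then assumed to vary like the other groups, 3 in place of 11 genes were called. MSMO1, CYP51A1, IDI1, STARD4 and INSIG1 then had changes of 1.15, 0.57, 0.69, 0.54 and 0.40, with adjusted p-values of 0.0783, 0.127, 0.12, 0.114 and 0.231.

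Against THP1, 7 genes were called lower in B11 at 0 ug/ml and higher at 10 ug/ml, where 16 were not called. Over all tested genes, 23.6% were called lower at 0 ug/ml and 16.4% higher at 10 ug/ml, but the share that did both was not computed. By sign alone, 25 of the 29 differences were below 0 at 0 ug/ml and 21 above 0 at 10 ug/ml. The median difference over all tested genes was 0.02 at 0 ug/ml and -0.02 at 10 ug/ml. At 1 ug/ml 20 of the 29 genes were lower in B11 than in THP1 and SREBF1 was higher (283.7 ± 17.2 FPKM in B11 and 162.3 ± 9.55 FPKM in THP1, SD, n = 3 each), where 14.8% of all tested genes were lower and 15% higher. The median difference was -0.64. At 10 ug/ml 8 genes were higher in B11 (ACAT2, IDI1, GGPS1, CYP51A1, EBP, DHCR7, INSIG1 and STARD4) and 5 lower (SQLE, LBR, SC5D, SCAP and MBTPS1), where 16.4% of all tested genes were higher and 16% lower. The median was then 0.11. The DHCR7 call at 10 ug/ml was lost with only those groups fitted (adjusted p = 0.0578). All of those 8 but GGPS1 had been lower in untreated B11, and SQLE, LBR and SC5D were lower in B11 at all 3 doses. SC5D, one of these, had 20.2, 17.8 and 18 FPKM in B11 at 10 ug/ml, against 30.9, 27.7 and 28.1 FPKM in THP1 at 10 ug/ml (-0.60 ± 0.15, adjusted p = 0.00484). At 10 ug/ml both lines had moved, so that INSIG1 stood at 141.5 ± 25.9 FPKM in B11 and 80.4 ± 8.5 FPKM in THP1, against 163.6 ± 8.54 FPKM in untreated THP1 (SD, n = 3 each).

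Among the regulators, SREBF2 was lower in B11 than in THP1 without the drug (-0.67 ± 0.06, adjusted p = 6.12e-07) and at 1 ug/ml (-0.24 ± 0.06, adjusted p = 0.0117), and at 10 ug/ml the difference was 0.10 (95% interval -0.04 to 0.24). The call for SREBF2 at 1 ug/ml was lost without library B of B11 or of THP1 at that dose (adjusted p of 0.0524 and 0.0557). A fit of only those groups lost it too (adjusted p = 0.0775). SCAP was not called without the drug (0.18 ± 0.10, adjusted p = 0.174) and was lower in B11 at 1 and 10 ug/ml (-0.33 and -0.35, adjusted p of 0.0259 and 0.018). The SCAP call at 1 ug/ml was lost without B11 library A or THP1 library C (adjusted p of 0.122 and 0.0861). It was also lost with only those groups fitted. The SCAP call at 10 ug/ml was lost without B11 library B or THP1 library B or C (adjusted p of 0.0589, 0.0737 and 0.0507). For SCAP the untreated lines were called apart without B11 library B (adjusted p = 0.0355). SREBF1 was above THP1 at 1 ug/ml by 0.80 ± 0.10 (adjusted p = 2.74e-05), while its differences of 0.17 and 0.26 at 0 and 10 ug/ml were not called (adjusted p of 0.175 and 0.067, the second 0.0346 without B11 library C and 0.0315 without THP1 library B).

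**Figure D4:**
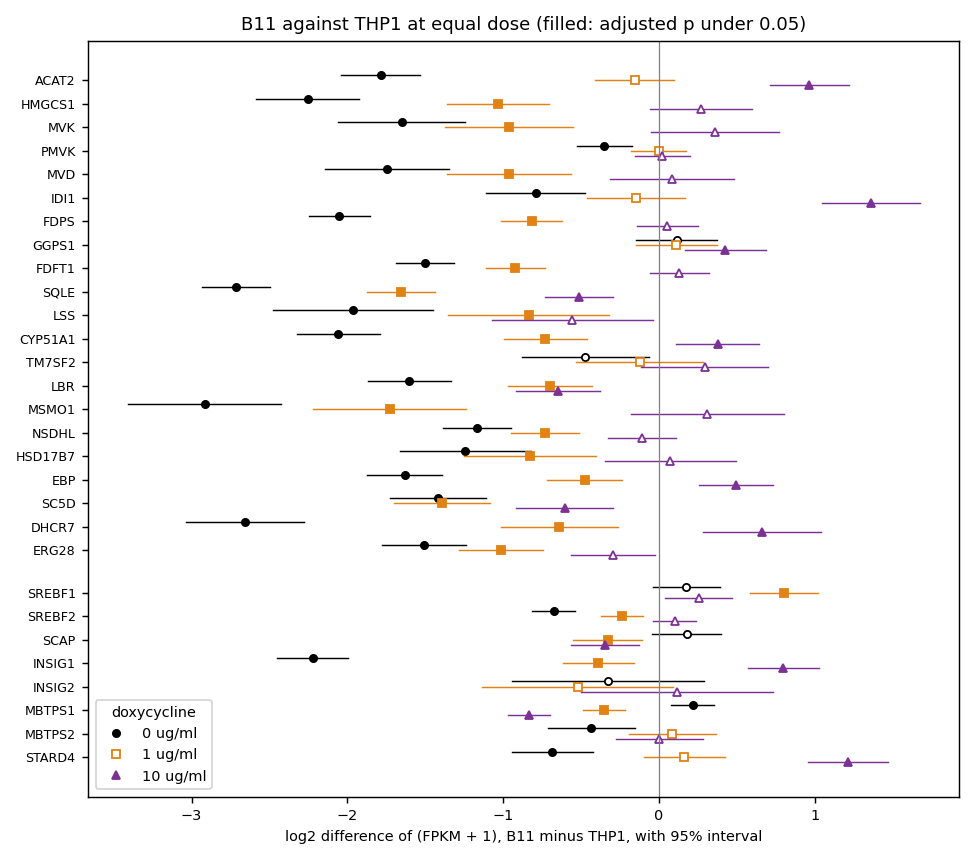
Difference between B11 and THP1 at equal dose for each of the 29 genes, as B11 minus THP1 of log2(FPKM + 1) with its 95% interval, at 0 ug/ml (black circles), 1 ug/ml (orange squares) and 10 ug/ml (purple triangles). Filled points passed an adjusted p of 0.05. Most enzymes move from left to right as the dose rises, from 23 genes lower in B11 at 0 ug/ml to 8 higher and 5 lower at 10 ug/ml.

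Genes next to the pathway were described from fixed lists, with 21.6% of all tested genes rising and 21.3% falling in B11 at 10 against 0 ug/ml, and 0.0968% and 0.923% in THP1. A list of 13 genes was drawn up for fatty acid synthesis under SREBP1, but 1 of them, TMEM97, is known as a sterol-regulated gene of cholesterol trafficking and is among those that rose in B11 (0.87, adjusted p = 0.00138). Of the 13, 12 were tested, of which 9 rose and 0 fell in B11 and 0 rose and 2 fell in THP1. Between the untreated lines, 8 were lower in B11 and 1 higher, where 23.6% of all tested genes were lower and 23.5% higher. FADS2, a fatty acid desaturase, had 32.8, 33.0 and 29.5 FPKM in B11 at 0 ug/ml, 216.3, 244.9 and 227.1 FPKM at 1 ug/ml, and 176.6, 188.1 and 151.8 FPKM at 10 ug/ml (2.40 at 10 against 0 ug/ml, adjusted p = 1.72e-10). FASN, fatty acid synthase, had 279.7, 246.1 and 238.6 FPKM in B11 at 10 ug/ml, against 59.6, 61.2 and 45.2 FPKM at 0 ug/ml. SCD, the stearoyl-CoA desaturase, rose by 1.76 in B11 and fell by 0.76 in THP1 (adjusted p of 1.23e-09 and 0.000897).

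The liver X receptors (LXRs) sense oxysterols and induce sterol export. Of 9 genes listed for LXRs, their targets and oxysterol response, 8 were tested. Of the 8, 1 rose and 4 fell in B11 at 10 against 0 ug/ml, and 1 fell in THP1. The shares of all tested genes were 21.6% up and 21.3% down in B11, and 0.923% down in THP1. NR1H3, which encodes one LXR, had 27.4, 25.8 and 19.3 FPKM in B11 at 10 ug/ml, against 77.8, 56.2 and 74.2 FPKM at 0 ug/ml (-1.48, adjusted p = 1.96e-05). MYLIP, an LXR-induced ubiquitin ligase, averaged 14.7 ± 1.42 FPKM in B11 at 10 ug/ml and 25.1 ± 1.86 FPKM at 0 ug/ml, and in THP1 10.8 ± 0.860 FPKM at 10 ug/ml and 15.9 ± 1.09 FPKM at 0 ug/ml (SD, n = 3 each). PLTP, a phospholipid transfer protein, was the gene that rose (0.55, adjusted p = 0.000108).

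Of 13 users of isoprenoids, 5 rose and 1 fell in B11 and 0 were called in THP1. Among all tested genes, 21.6% rose and 21.3% fell in B11 at 10 against 0 ug/ml. ICMT, which methylates prenylated proteins such as RAS, had 20.9, 24.8 and 27.3 FPKM in B11 at 10 ug/ml, against 14.5, 13.2 and 11.7 FPKM at 0 ug/ml (0.84, adjusted p = 1.43e-05). RABGGTA, a subunit of the Rab geranylgeranyl transferase, fell by 0.52 while its partner RABGGTB rose by 0.83. Of 11 genes for turnover of SREBP and INSIG proteins, 1 rose and 2 fell in B11, among them ERLIN1, a scaffold of that degradation (51.8 ± 4.19 FPKM at 10 ug/ml and 84.9 ± 5.60 FPKM at 0 ug/ml, SD, n = 3 each). Of 13 genes of sterol trafficking and esterification, 12 were tested, of which 3 rose and 2 fell in B11, with SCARB1, the receptor for high-density lipoprotein, up by 0.55 and NPC2, which binds cholesterol in lysosomes, down by 0.81 (adjusted p of 1.83e-05 and 2.67e-06). The called counts of the turnover and trafficking lists in B11 lay near or below the shares of all tested genes. In THP1 at 10 against 0 ug/ml, 0 genes of the lists of isoprenoid users, turnover and trafficking were called by limma. With an unadjusted p under 0.05, 2 of 13, 0 of 11 and 0 of 12 of these were higher and 0, 2 and 1 lower.

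**Figure D5:**
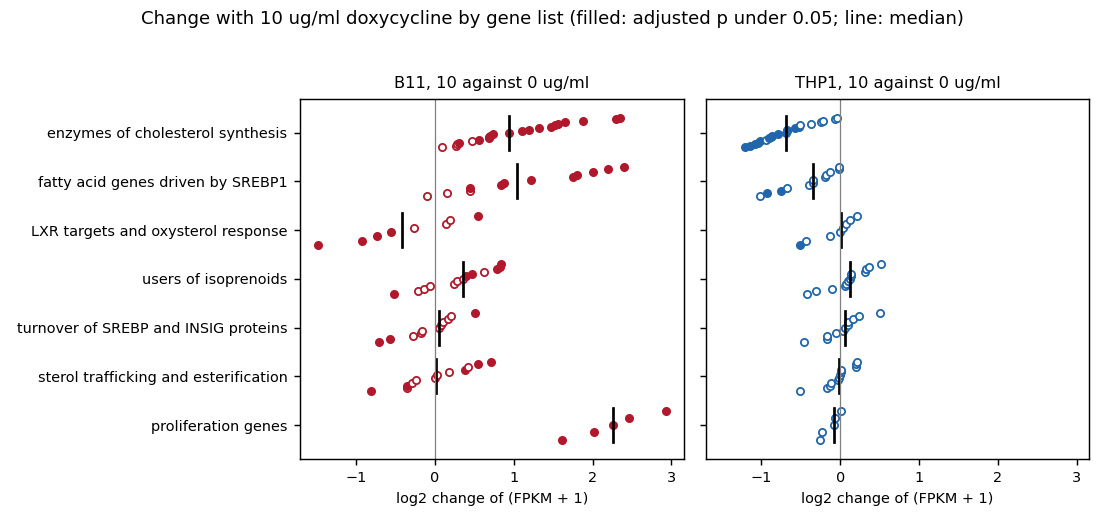
Change between 10 and 0 ug/ml doxycycline of each tested gene of 7 lists, as the difference of log2(FPKM + 1), in B11 (left, red) and THP1 (right, blue). Each point is a gene, filled where the adjusted p was under 0.05, and the black line is the median of the list. All 21 cholesterol enzymes and 11 of 12 tested genes of the fatty acid list lie right of 0 in B11, and all of both lists left of 0 in THP1, while the proliferation genes lie right of 0 in B11 and near 0 in THP1.

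Genes of proliferation, like the enzymes, rose in B11 at 1 and 10 ug/ml against 0 ug/ml. The 5 proliferation genes (CCNA2, CCNB1, MKI67, PCNA and TOP2A) summed to 107.0, 95.2 and 97.3 FPKM in B11 at 0 ug/ml, 545.3, 521.3 and 527.8 FPKM at 1 ug/ml, and 471.6, 501.2 and 469.3 FPKM at 10 ug/ml. In THP1 they summed to 462.7 to 529.2 FPKM at 10 ug/ml, against 519.0 to 558.6 FPKM at 0 ug/ml. All 5 rose in B11 at 10 against 0 ug/ml with a median of 2.26, where 21.6% of all tested genes rose. Between 10 and 1 ug/ml in B11, 0 of the 5 were called (median -0.09). At that step 7 of the 21 enzyme genes rose, where 5.69% of all tested genes rose. In THP1 at 10 against 0 ug/ml limma called 0 of the 5 proliferation genes (1 lower at an unadjusted p under 0.05). Their part in the changes of the cholesterol genes was not tested, nor was that of the fall of LYZ and 3 other myeloid markers in B11.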

How the data were processed

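RNA came from RNeasy columns and went into standard Illumina libraries, per the labels' protocols. The submitters' processing notes name HISAT2, Cuffnorm and the build GRCh38. The authors deposited 1 table of FPKM values. The unit was inferred from the tool and the values, since no header states it. Tool versions, annotation, strand and the scaling option are not given in the sources at hand.

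From the deposited FPKM, 17555 genes that reached 1 FPKM in 3 or more of the 18 libraries were kept, and log2(FPKM + 1) was fitted with limma 3.58.1 in R 4.3.3 as 6 group means with an intensity trend (12 residual degrees of freedom). P-values were adjusted by Benjamini-Hochberg over all genes kept, within each of 12 comparisons. The fit was tested on simulated data. Symbols and exon overlaps came from GENCODE 29, which named 57047 of the 60658 IDs. Depth, estimated from the steps of low values, spanned a ratio of 1.44 between libraries, and counting error was not modelled.

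The 29 genes and the other lists were chosen with earlier results of these data known, so their patterns are descriptions. Genes named per comparison were the up to 5 with the largest change each way that were called, reached a mean of 5 FPKM and had separated libraries. From each other list the rule named up to 3 genes with the smallest p among those called. Values of further members, RABGGTA and RABGGTB were added to account for the lists. Alternatives covered the pseudocount, filter, scaling, trend, libraries in the fit, the replicate block and each library left out. Batches are not labelled. Matplotlib 3.10.9 drew the figures.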

Additional observations from a re-analysis of the deposited data

Results flagged for a closer look

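The responses of the lines to doxycycline differed, by the limma test of the difference itself, for the genes given here as the B11 change minus the THP1 change of log2(FPKM + 1). Between 10 and 0 ug/ml the difference was 3.32 for DHCR7, 3.23 for MSMO1, 3.02 for INSIG1, 2.75 for ACAT2 and 2.52 for HMGCS1. In the negative direction it was -1.05 for MBTPS1 and -0.53 for SCAP. Between 1 and 0 ug/ml it was 2.02 for DHCR7, 1.83 for INSIG1, 1.63 for ACAT2, 1.33 for CYP51A1 and 1.23 for FDPS, and -0.57 for MBTPS1 and -0.51 for SCAP. Between 10 and 1 ug/ml it was 2.04 for MSMO1, 1.51 for IDI1, 1.32 for MVK, 1.30 for HMGCS1 and 1.30 for DHCR7, and -0.55 for SREBF1 and -0.48 for MBTPS1. The SREBF1 value between 10 and 1 ug/ml lost its call in 15 of 28 alternatives, with an adjusted p of up to 0.285. With only library A kept for B11 at 1 ug/ml, DHCR7 and MBTPS1 between 10 and 1 ug/ml had adjusted p-values of 0.0523 and 0.0745. SCAP between 1 and 0 ug/ml lost its call without B11 library A at 1 ug/ml or untreated THP1 library B, with adjusted p-values of 0.0501 and 0.0505.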

How the results depend on the processing

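Single-gene results were checked for the genes named by the rule in each comparison, which takes the largest changes. SREBF1, SREBF2, SCAP, INSIG1 and INSIG2 were checked in every comparison. Of the 89 called results among these, 60 held under all alternatives, 29 were lost under at least 1 and 0 changed direction, and 2 results gained a call. Other called results were not checked one by one, so these counts do not cover all calls. The counts of called genes that moved by over 1.5 times lay in the THP1 and 10 against 1 ug/ml comparisons, and the cause was not tested. With only library A kept for B11 at 1 ug/ml, a lone library assumed to vary like the other groups, 3 in place of 11 of the 29 genes were called in B11 at 10 against 1 ug/ml, 4 in place of 9 in THP1 at 10 against 1 ug/ml and 13 in place of 20 for the difference of those responses. In THP1 at 10 against 0 ug/ml, 6 in place of 15 were called with only those groups fitted, and 9 to 16 when each library was dropped in turn. In THP1 at 10 against 1 ug/ml the 9 became 4 with no filter, 4 with no trend, 2 with only those groups fitted, 5 with the replicate block and 2 to 11 when each library was dropped in turn. The replicate letters did not pair the libraries (same-letter correlations of deviations -0.07 to 0.09), and the block moved no other count by over 1.5 times. In THP1 at 1 against 0 ug/ml, median-of-ratios and TPM scaling called 0 genes higher and 1 lower of all tested, in place of 1 and 1. Absolute depth is only estimated, so no counting intervals are given.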
